A study of Mus musculus with 18 samples.

Results

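Triamcinolone acetonide (TAA) was set against dexamethasone (Dex) at 1 week postinjection, on 6 of the 18 Affymetrix mouse genome arrays of the series. They were all the arrays whose labels name TAA or Dex at day 7, with 3 in each group, and each array held RNA of the RPE/choroid of 1 animal. The TAA group had received a single intravitreal injection of 1 μL with 25 μg of TAA, and the Dex group 1 μL with 10 μg of Dex. The BSS group, used for reference and also 3 arrays, had received 1 μL of balanced salt solution, the solvent of both steroids. All were male C57BL6/J mice, aged 2 months per the labels, with no transgene named. Both steroids were compared again at day 30 (1 month) on 6 further arrays. The doses differed, so that the effects of steroid and dose cannot be told apart.

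The RPE is the pigmented cell layer behind the retina, which supports the photoreceptors and takes up shed rod tips, and the choroid is the vessel bed beneath it. Glucocorticoids enter cells and bind a receptor that moves to the nucleus, where it switches on genes such as Fkbp5, Tsc22d3 and Per1 and dampens many genes of inflammation. TAA and Dex are both fluorinated synthetic glucocorticoids, which differ in that an acetonide ring of TAA takes the place of a hydroxyl and a methyl group of Dex. TAA is poorly soluble and is known to persist in the vitreous as a depot, while Dex clears faster. Per the methods, extraocular tissue was trimmed away and the retina was not included, and much of the choroid probably remained with the sclera.

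Values were deposited as log2 after RMA and are centered, the median of the 18 arrays being 0 for each probe set. They therefore hold differences between arrays and no level, and whether RPE markers are abundant could not be checked. A difference of 1 is a doubling. The TAA and Dex arrays of 1 week had medians between -0.0063 and 0.0154 and SDs over probe sets between 0.2059 and 0.2635, the highest being that of TAA replicate 2, with 0.2262 next. Genes known from rod photoreceptors did separate the arrays: the mean of 22 rod genes was -0.257, -1.135 and 1.650 on TAA replicates 1, 2 and 3, against 1.057, 1.309 and -0.227 on the Dex replicates and -1.011, -0.699 and -0.493 on the BSS replicates. Both steroid groups thus held arrays with high and with low rod values. For such genes after Dex, the authors do not believe that retinal contamination was the cause. They propose that the mRNAs may have built up because phagocytosis slowed. The source of the rod values was not tested here. SE denotes limma's standard error, which pools the spread within the 6 groups. With 3 arrays against 3, an exact two-sided permutation test cannot give a p below 0.1.

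No gene passed the test between the steroids. After Benjamini-Hochberg adjustment of limma's p-values, 0 of 45101 probe sets (0%) were under 0.05, and the smallest adjusted p was 0.223, for Saa3. Before adjustment 1217 (2.70%) were at 0.05 or below. The study's own thresholds, a fold change of at least 1.5 together with an unadjusted p no higher than 0.05, were met by 122 probe sets (0.271%), of which 32 (0.0710%) were higher and 90 (0.200%) lower after TAA. The methods' t-test gave 63 probe sets at these thresholds and 0 after adjustment. The split depended on the scaling: with quantile normalization 295 probe sets met the thresholds and 55.6% of them were higher after TAA, against 26.2% of the 122. Without Dex replicate 2 the count was 218, and without TAA replicate 3 it was 208. Averaged per gene, 0 of 18194 genes (0%) passed, with a smallest adjusted p of 0.133, and 453 (2.49%) were at 0.05 or below before adjustment. The values that follow are therefore sizes and orders of arrays, and none is a called change unless said so.

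**Figure D1:**
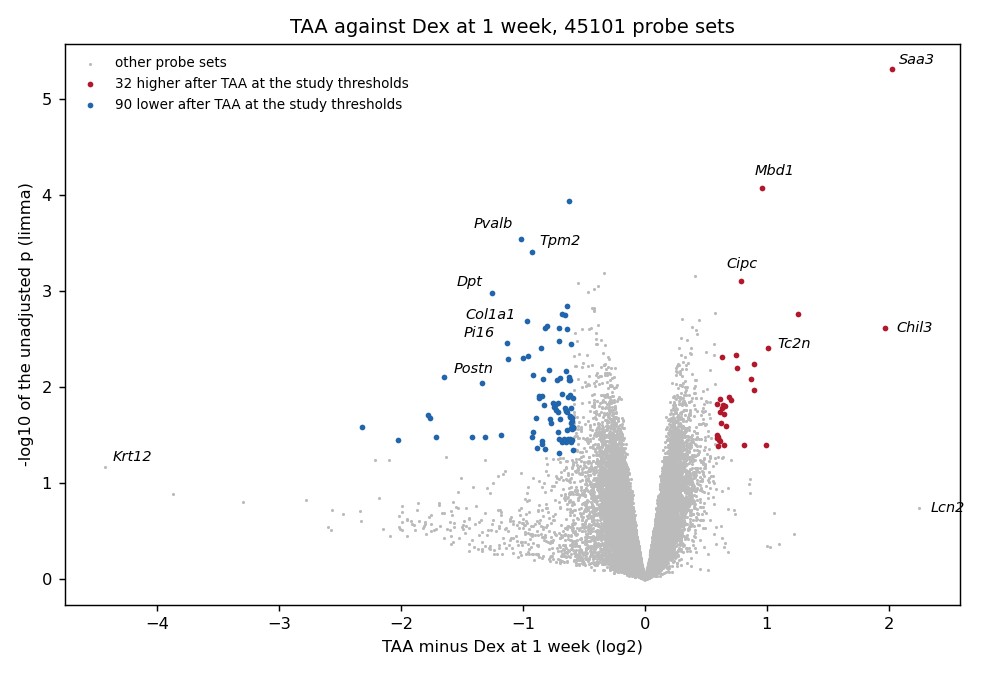
Difference between TAA and Dex at 1 week (log2, x axis) against the -log10 of limma's unadjusted p (y axis) for 45101 probe sets. Red and blue points met the study thresholds, 32 with a higher and 90 with a lower value after TAA, and Saa3 stands farthest up at a difference of 2.03.

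Saa3 encodes an acute phase serum amyloid protein that macrophages and epithelia make in inflamed mouse tissue. Its values were 2.84, 1.92 and 2.73 on the TAA arrays, against 0.94, 0.44 and 0.02 on the Dex arrays and 0.13, -0.08 and -0.49 on the BSS arrays. Every TAA array lay above every Dex array, the nearest pair being 1.92 and 0.94. The difference was 2.03 (SE 0.30, 95% interval 1.40 to 2.66), a fold change of 4.08, with an adjusted p of 0.223 in limma. Array weights, which give discordant arrays less influence, brought the adjusted p to 0.0475. Against BSS, Saa3 rose after TAA (log2 difference 2.64, adjusted p = 0.00836 in limma), the only 1 of 45101 probe sets (0.00222%) to pass that comparison, whereas Dex gave 0.61 (SE 0.30) with 0 probe sets (0%) passing.

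A pair of further genes of the acute phase list had differences as large, but with more scatter. Chil3, a chitinase-like protein secreted by mouse macrophages, stood at 3.16, 0.79 and 2.23 after TAA, against 0.04, -0.64 and 0.88 after Dex, a difference of 1.97 (SE 0.56). TAA replicate 2 lay just below Dex replicate 3, so that the groups overlapped. Lcn2, a lipocalin that binds bacterial siderophores, was at 2.91, 2.01 and 2.65 after TAA, against -0.85, 2.49 and -0.84 after Dex and -1.81, -1.63 and -1.81 after BSS. All TAA arrays were high and all BSS arrays low, while Dex replicate 2 was with the TAA arrays and the other Dex arrays were not. The difference was 2.25 (SE 1.62), and its interval ran from -1.19 to 5.69. Lcn2 is among the genes the study names, and Chil3 was singled out after its values had been seen.

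The other acute phase genes did not share this. Of 17 measured members of the list, 9 were higher and 8 lower after TAA, with a median difference of 0.03, against -0.002 over all genes. Saa3 alone had its TAA arrays apart from the Dex arrays. Its paralogs Saa1 (0.07, SE 0.09) and Saa2 (-0.09, SE 0.15) had small differences, as did Orm2, another plasma protein of the acute phase (0.09, SE 0.11). The haptoglobin gene Hp (-0.64, SE 0.42) was set by Dex replicate 1 at 1.72. The serpin gene Serpina3n, a marker of reactive glia, had a difference of 0.52 (SE 0.85), with TAA replicate 2 at 2.66 and Dex replicate 2 at 1.77.

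The promoter windows of these 3 genes are shown because their values led the comparison. They are the 250 bases before the RefSeq start (build GRCm38.p6, printed 5′ to 3′ along the gene). Capitals mark matches on either strand to TTGCNNAA, a form of the site bound by C/EBP factors, which drive acute phase genes in liver and include Cebpd of the glucocorticoid response list.
Saa3, chr7:46715677-46715926, minus strand: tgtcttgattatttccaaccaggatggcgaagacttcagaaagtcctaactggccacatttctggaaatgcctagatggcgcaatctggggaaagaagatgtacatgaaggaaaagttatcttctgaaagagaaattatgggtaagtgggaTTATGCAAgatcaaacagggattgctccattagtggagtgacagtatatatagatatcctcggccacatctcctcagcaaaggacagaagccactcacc
Lcn2, chr2:32387740-32387989, minus strand: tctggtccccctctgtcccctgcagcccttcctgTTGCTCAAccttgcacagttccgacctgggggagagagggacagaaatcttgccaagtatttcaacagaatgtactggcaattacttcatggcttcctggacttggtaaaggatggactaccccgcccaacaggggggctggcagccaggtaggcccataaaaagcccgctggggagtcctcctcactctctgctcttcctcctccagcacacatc
Chil3, chr3:106167565-106167814, minus strand: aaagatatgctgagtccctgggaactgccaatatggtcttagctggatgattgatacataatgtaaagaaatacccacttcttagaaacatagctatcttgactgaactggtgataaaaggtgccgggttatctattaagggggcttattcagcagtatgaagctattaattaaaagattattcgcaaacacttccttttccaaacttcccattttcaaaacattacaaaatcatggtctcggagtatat
Saa3 held 1 match beginning 99 bases before the start, Lcn2 held 1 at 216 bases, and the Chil3 window held 0. Of 32851 windows of this length 9.56% held a match, and of 27025 genes with a window 10.8% did. Among acute phase genes 8 of 15 with a window did, Saa1 and Saa2 among them, so that genes with and without a large difference carried these letters.

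In all, 17 genes, Saa3 among them, met the study thresholds with every TAA array above every Dex array. Over all probe sets, TAA lay wholly above Dex for 5.70% and wholly below for 5.36%. Mbd1, a protein that binds methylated DNA, was at 1.26, 1.17 and 0.53 after TAA, against 0.13, 0.20 and -0.24 after Dex (difference 0.96, SE 0.18). The Dex arrays sat with the BSS arrays (0.17, -0.09 and -0.15), so that only the TAA arrays stood off. Tc2n, which encodes a protein with C2 domains, was at 1.45, 0.59 and 0.37 after TAA, against 0.00, -0.31 and -0.31 after Dex (1.01, SE 0.30), and its BSS values of 0.00, 0.52 and 0.48 reached into both groups. Rgs1, which shortens G protein signals in immune cells, was even among the TAA arrays (0.75, 1.01 and 0.87) and gave 0.87 (SE 0.29).

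Cipc, an inhibitor of the Clock protein, had values of 0.78, 0.85 and 0.49 after TAA, against 0.11, -0.08 and -0.26 after Dex. The difference was 0.78 (SE 0.19), but BSS replicate 3 was at 0.78 too and the BSS arrays spanned both steroid groups. Averaged over its probe sets, the difference of Cipc was smaller, between 0.33 and 0.45 with single arrays left out. For the other 7 genes of this set the differences were between 0.64 and 0.89. They were Paqr9, a membrane receptor of the progestin and adiponectin receptor family, Fndc4, a secreted fibronectin domain protein, the amino acid transporter Slc7a5, the isoprenoid enzyme Idi1, the tight junction protein Cldn1, the syntaxin-binding protein Stxbp3 and Abr, a regulator of small GTPases. TAA replicate 1 was the highest TAA array for 9 of the 12 named genes, and for Abr it was at 1.53 beside 0.33 and 0.23 on the other TAA arrays.

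**Figure D2:**
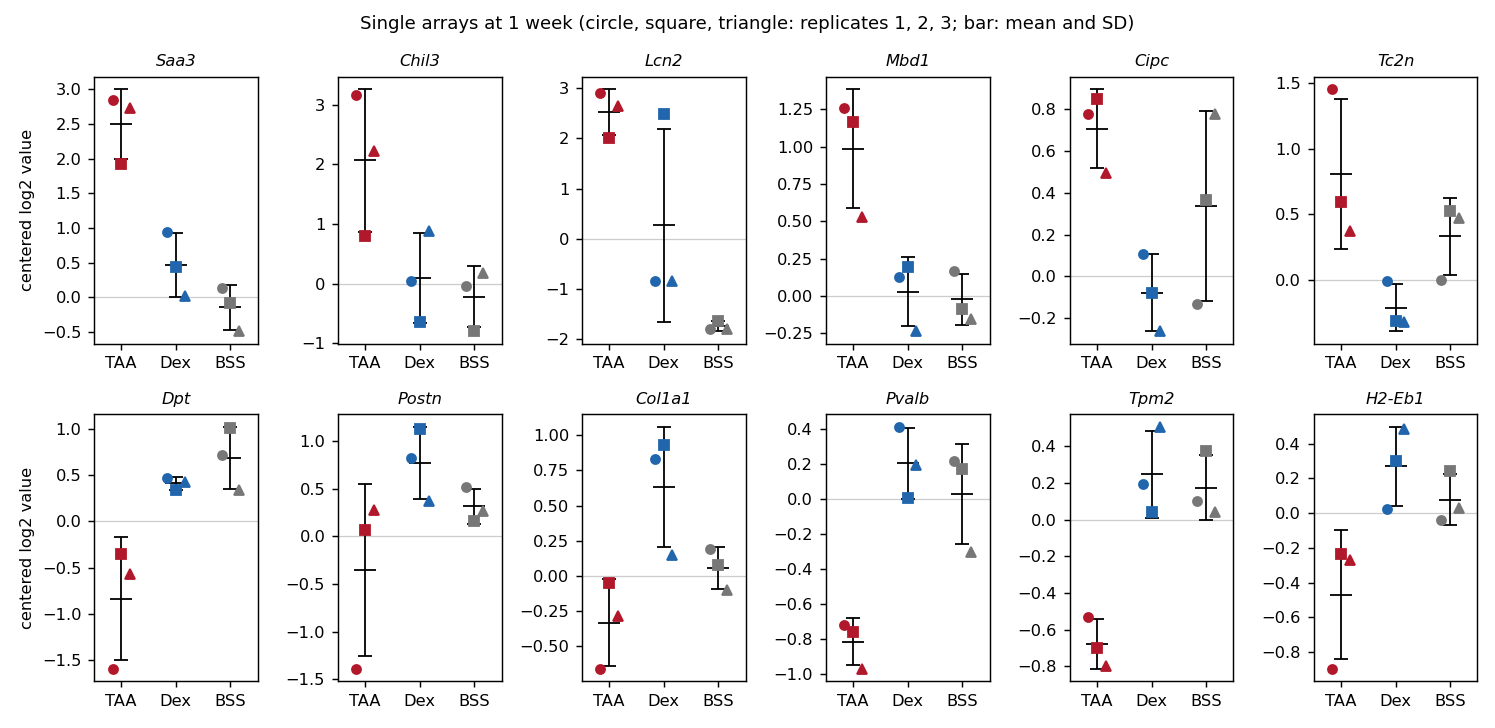
Centered log2 values (y axis) of 12 genes on the single arrays of 1 week, by group (x axis: TAA, Dex, BSS), with the mean and SD as bars. The TAA arrays of Saa3 sit between 1.92 and 2.84, all above the Dex arrays, and those of Pvalb between -0.97 and -0.72, all below.

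Classical targets of the glucocorticoid receptor had mostly slightly higher values after TAA. Of 28 measured genes of the list, 27 were higher and 1, the transglutaminase gene Tgm2 (-0.03, SE 0.13), was lower, whereas 49.4% of all genes had a positive difference. Lcn2, with the largest difference of the list at 2.25, is in the acute phase list too. The median of the list was 0.18 between the steroids, 0.20 for TAA against BSS and 0.02 for Dex against BSS. One array carried much of this: the list mean was 0.554, 0.166 and 0.204 on the TAA arrays, against -0.063, 0.121 and 0.055 on the Dex arrays, and TAA replicate 1 was the highest TAA array for 22 of the 28 genes. Without it the median was 0.06, and with quantile normalization of all arrays it was 0.34.

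Fkbp5, a co-chaperone that damps the receptor, was at 0.96, 0.04 and 0.21 after TAA, against -0.04, -0.02 and 0.07 after Dex (0.40, SE 0.17). Tsc22d3, the anti-inflammatory leucine zipper protein GILZ, was at 0.81, 0.11 and 0.34 after TAA, against 0.25, 0.25 and 0.23 after Dex (0.18, SE 0.13). Without TAA replicate 1 its difference was -0.02. Zbtb16, a zinc finger repressor, had 1.02 on that array and -0.09 and -0.06 on the other TAA arrays. In these 3 genes the highest value was that of the same animal.

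The TAA arrays lay wholly above the Dex arrays for 3 of the 28 genes, or 10.7%, beside 5.67% of all genes. Cebpd, a C/EBP factor, was at 0.30, 0.51 and 0.50 after TAA, against -0.02, 0.25 and -0.07 after Dex (0.38, SE 0.19). Here replicate 1 was the lowest of the TAA arrays. The others were Sgk1, a kinase that raises sodium transport (0.14, SE 0.10), and Cyp7b1, a sterol hydroxylase (0.18, SE 0.10). The clock repressor Per1, also a direct target, was at 0.87, 0.29 and 0.86 after TAA, against 0.36, 0.45 and 0.32 after Dex (0.29, SE 0.18). Of 11 genes for the receptor and for steroid handling, among them the receptor gene Nr3c1, 4 were higher and 7 lower, with a median of -0.02.

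The full palindrome of the receptor's response element (AGNACA, any 3 bases, then TGTNCT, on either strand) occurred in 0.074% of all genes and 0.0609% of all windows. Of the 23 genes of the glucocorticoid list with a RefSeq window, only Sgk1 carried it. Sgk1 is shown for this reason, from 1 of 6 annotated starts, with the match, which begins 189 bases before that start, in capitals.
Sgk1, chr10:21993640-21993889, plus strand: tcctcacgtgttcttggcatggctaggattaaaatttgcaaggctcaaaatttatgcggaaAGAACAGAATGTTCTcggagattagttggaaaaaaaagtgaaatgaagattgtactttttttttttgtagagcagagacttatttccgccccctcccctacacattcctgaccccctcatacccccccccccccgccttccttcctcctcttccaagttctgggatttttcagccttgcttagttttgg
Receptor sites often lie farther from the start than these windows reach. Sgk1 was at 0.19, 0.05 and 0.13 after TAA, against -0.02, 0.04 and -0.09 after Dex, so that the lowest TAA array and the highest Dex array nearly met.

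A small shift in the same direction was seen in genes of the RPE and of cholesterol synthesis. Of 25 RPE genes, 22 were higher after TAA with a median of 0.13, or 0.06 without TAA replicate 1, and 7 (28.0%) had all TAA arrays above all Dex arrays, beside 5.67% of all genes. They included Rpe65, the isomerase of the visual cycle (0.13, SE 0.11), the channel gene Best1 (0.16, SE 0.11), the transcription factor Otx2 (0.27, SE 0.14) and Ermn, an actin-binding protein known from myelin (0.35, SE 0.22). For Rpe65 the values were 0.26, 0.03 and 0.07 after TAA, against 0.01, -0.01 and -0.03 after Dex, so that the groups were apart by little. BSS replicate 2 was at 0.16 and the BSS arrays overlapped both. Igfbp3, a binding protein of insulin-like growth factors, had all TAA arrays below (-0.34, SE 0.24). Of 20 cholesterol synthesis genes, 18 were higher, with a median of 0.13, or 0.08 without Dex replicate 1 and 0.21 without Dex replicate 3, and 5 of the 20 lay wholly above. Msmo1, a sterol demethylase, gave 0.36 (SE 0.12), Tm7sf2, a sterol reductase, 0.31 (SE 0.12), and Idi1 0.52 (SE 0.22). In bulk tissue a larger share of a cell type and more RNA per cell cannot be told apart.

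Negative differences were more frequent at the study thresholds, except with quantile normalization. In all, 55 genes met the thresholds with the TAA arrays wholly below the Dex arrays, and among the 12 largest were matrix genes, genes of fast muscle, Chac1 and Retnla. Chac1, an enzyme that degrades glutathione and is induced by stress, had the largest difference of these 55, at -1.31 (SE 0.56), with -0.16, -1.08 and -0.31 after TAA, against -0.12, 1.16 and 1.36 after Dex and 1.09, -0.12 and 0.07 after BSS. The steroid groups were apart only narrowly, since Dex replicate 1 was near TAA replicate 1, and one BSS array was as high as the high Dex arrays. Retnla, a resistin-like protein of mouse macrophages activated by type 2 cytokines, was at -0.91, -0.50 and -1.24 after TAA, against 0.15, -0.11 and -0.01 after Dex (-0.89, SE 0.35).

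Fibroblast and matrix genes had lower values after TAA in 23 of 25 members, with a median of -0.37, and 9 of 25 (36.0%) lay wholly below, beside 5.09% of all genes. The medians against BSS were -0.11 for TAA and 0.17 for Dex, on opposite sides of 0. Dpt, dermatopontin, which binds collagen fibrils, was at -1.60, -0.35 and -0.57 after TAA, against 0.47, 0.34 and 0.43 after Dex and 0.72, 1.01 and 0.34 after BSS (-1.25, SE 0.31). Pi16, a peptidase inhibitor of resting fibroblasts, gave -1.13 (SE 0.33), and its TAA arrays at -1.09, -0.50 and -1.03 were all below the BSS arrays too. For Dpt and Pi16 the Dex arrays overlapped the BSS arrays.

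Col1a1, a chain of type I collagen, showed another order. It was at -0.66, -0.05 and -0.29 after TAA, against 0.83, 0.93 and 0.15 after Dex and 0.20, 0.08 and -0.10 after BSS. The Dex arrays were the ones farther from BSS, and the difference of -0.97 (SE 0.26) joined 0.58 for Dex against BSS and -0.39 for TAA against BSS. Postn, periostin, was at -1.39, 0.06 and 0.27 after TAA, against 0.82, 1.13 and 0.38 after Dex and 0.52, 0.16 and 0.26 after BSS (-1.13, SE 0.34). TAA replicate 1 was far below the other arrays for Postn, as for Dpt.

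Chains of type VI collagen, a beaded filament around cells, all had negative differences: Col6a1 gave -0.47 (SE 0.16), Col6a2 -0.53 (SE 0.17) and Col6a3 -0.58 (SE 0.22), and all 3 had their TAA arrays below their Dex arrays, for Col6a3 by only 0.317 against 0.318 at the nearest pair. Fn1, fibronectin, was at -0.38, -0.09 and 0.14 after TAA, against 0.43, 0.58 and 0.25 after Dex and -0.08, -0.05 and -0.12 after BSS (-0.53, SE 0.17). Mfap4, a microfibril protein, gave -0.92 (SE 0.38) and Col3a1, whose arrays overlapped, -0.60 (SE 0.28). Sparc (-0.14, SE 0.10), Dcn (-0.07, SE 0.16) and the fibroblast receptor Pdgfra (0.08, SE 0.22) had small differences, so that fibroblast markers did not all stand lower. Of 11 small leucine-rich proteoglycans of ocular stroma, 10 were lower, with a median of -0.26, or -0.15 without Dex replicate 3 and -0.43 without Dex replicate 2. Among them were Kera of the cornea (-1.02, SE 0.55), Epyc (-0.65, SE 0.25) and Fmod (-0.53, SE 0.30). Replicate 1 was the lowest TAA array for 19 of the 25 matrix genes, and without it the median of that list was -0.18.

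MHC class II genes, which present peptides on dendritic cells, macrophages and B cells, had lower values after TAA in 6 of 6 members, with a median of -0.67. H2-Eb1 was at -0.90, -0.24 and -0.27 after TAA, against 0.03, 0.30 and 0.48 after Dex and -0.04, 0.24 and 0.03 after BSS (-0.74, SE 0.27). H2-Aa gave -0.70 (SE 0.25), H2-Ab1 -0.68 (SE 0.35), the invariant chain Cd74 -0.66 (SE 0.29) and the peptide-loading gene H2-DMa -0.53 (SE 0.24). In each of these 5 genes (83.3% of the list, beside 5.09% of all genes) the groups did not overlap, though for H2-Ab1 and H2-DMa the nearest arrays were almost level. Ciita, the transcriptional activator of the set, was near 0 on all 6 arrays (-0.01, SE 0.09). The list mean was -0.724, -0.118 and -0.150 on the TAA arrays, against 0.006, 0.237 and 0.425 on the Dex arrays, and the median without TAA replicate 1 was -0.41. At 1 month all 6 genes were again lower after TAA, with a median of -0.56. The list means overlapped there, at -0.367, -0.633 and 0.035 after TAA, against -0.290, 0.554 and 0.243 after Dex.

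Markers of the cells that carry class II genes gave smaller values at 1 week. Of 15 macrophage and microglia genes 12 were lower after TAA, with a median of -0.10, or -0.04 without TAA replicate 1 and -0.18 without Dex replicate 2, and Folr2, a folate receptor of resident macrophages, gave -0.51 (SE 0.22). Of 12 genes of T, B and mast cells 10 were lower, with a median of -0.18, or -0.09 without Dex replicate 3 and -0.11 without TAA replicate 3. Interferon response genes had a median of -0.13 over 15 members, 12 of them lower, which became 0.01 without Dex replicate 3 and -0.29 without Dex replicate 1. At 1 month 12 of the 15 macrophage and microglia genes were lower after TAA, with a median of -0.34, and 11 of 12 complement genes, with a median of -0.21. Both list means overlapped between the groups. The macrophage and microglia mean was -0.205, -0.738 and 0.075 after TAA, against -0.088, 0.246 and -0.053 after Dex. The complement mean was -0.154, -0.374 and -0.075 after TAA, against -0.149, 0.261 and 0.130 after Dex. The part of the cells that carry class II genes in the class II values was not tested. At 1 week chemokines and their receptors had a median of -0.05, and inflammatory mediators of 0.01.

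**Figure D3:**
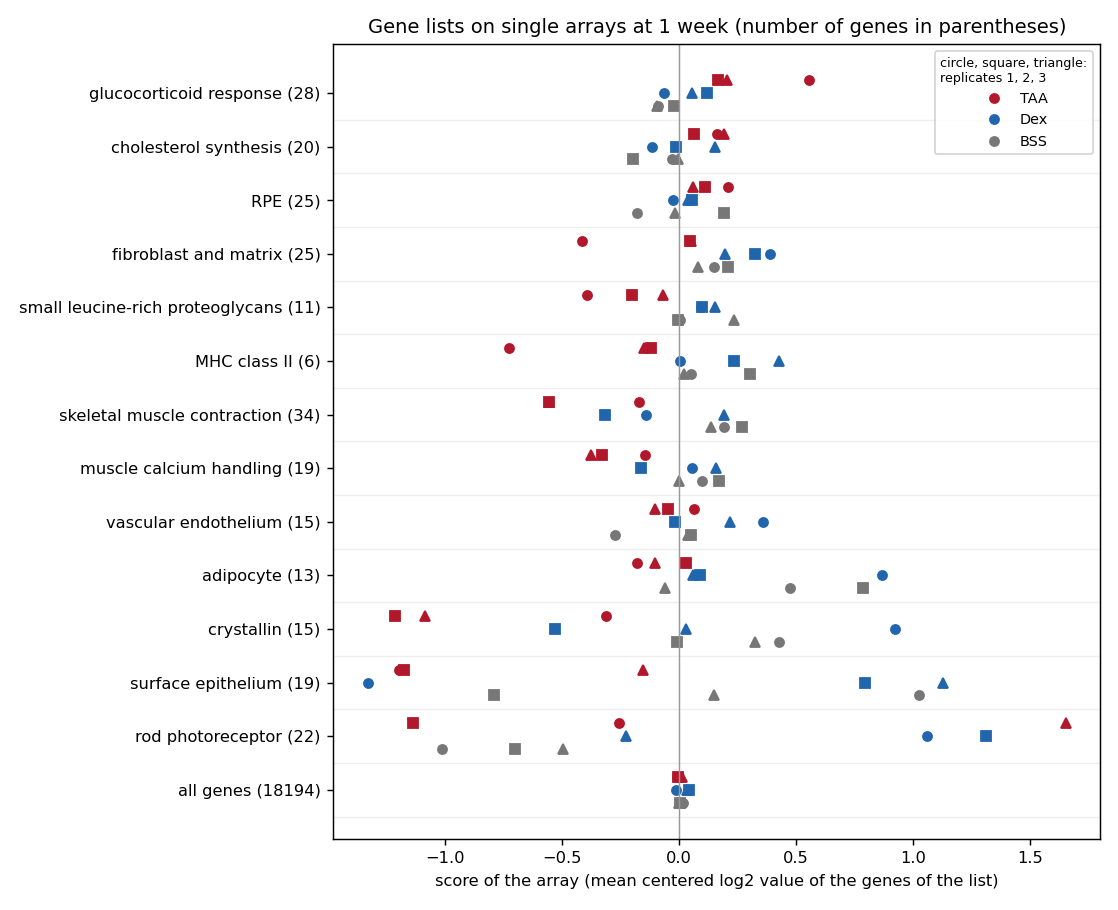
Mean centered log2 value of the genes of each list (x axis) on the single arrays of 1 week, for TAA, Dex and BSS, with one row per list. For the matrix, proteoglycan and MHC class II lists the 3 TAA arrays lie left of the 3 Dex arrays, while rod genes run from -1.135 to 1.650 among the TAA arrays alone.

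Skeletal muscle is not part of the RPE or choroid but surrounds the eye as the extraocular muscles. At the study thresholds 8 of 34 contractile genes were lower after TAA on gene means, beside 54 of all 18194 genes. This list was the longest, and among MHC class II genes it was 3 of 6. Of 34 contractile genes 28 were lower and 6 higher after TAA (50.6% of all genes had a negative difference), with a median of -0.41, and 9 (26.5%) lay wholly below, beside 5.09% of all genes. Pvalb, parvalbumin, which buffers calcium in fast fibers, was at -0.72, -0.76 and -0.97 after TAA, against 0.41, 0.01 and 0.19 after Dex and 0.22, 0.17 and -0.30 after BSS (-1.02, SE 0.22). The gap between TAA and Dex arrays was wider than the spread within either group. Tpm2, a tropomyosin, was at -0.53, -0.70 and -0.80 after TAA, against 0.20, 0.04 and 0.51 after Dex (-0.92, SE 0.20 for its leading probe set). Myl1, a fast myosin light chain, gave -0.96 (SE 0.29), Pgam2, a glycolytic enzyme of muscle, -0.91 (SE 0.30), and Tnni2, fast troponin I, -0.999 (SE 0.30).

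Genes of fast and of slow fibers did not follow the same pattern, as the plot of fast and slow muscle genes shows. This grouping was made after the values had been seen, and the difference between the groups was not tested. All 13 fast fiber genes were lower after TAA, with a median of -0.64, and the medians against BSS were -0.66 for TAA and 0.03 for Dex. The fast fiber mean was -0.203, -0.618 and -0.733 on the TAA arrays, against 0.333, -0.153 and 0.160 on the Dex arrays, so that the nearest arrays almost met. Over all 34 contractile genes the groups overlapped, with TAA replicate 1 at -0.169 and Dex replicate 2 at -0.316. TAA replicate 1 was the highest TAA array for 30 of the 34. Among 10 slow fiber genes 7 were higher and 3 lower, with a median of 0.12, and against BSS both steroids were low, by -0.57 for TAA and -0.82 for Dex. The slow fiber mean was -0.198, -0.543 and -0.367 on the TAA arrays, against -0.860, -0.648 and 0.135 on the Dex arrays and 0.149, 0.257 and 0.287 on the BSS arrays. Dex replicate 3 was thus like BSS, and the other Dex arrays were lower than every TAA array. Without Dex replicate 1 the slow fiber median was -0.06.

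Tnnc1, the slow troponin C, stood at -0.51, -0.92 and -1.11 after TAA, against -2.59, -0.95 and 0.21 after Dex (0.27, SE 0.63). Its fast counterpart Tnnc2 stood at -0.29, -0.65 and -0.79 after TAA, against 0.26, -0.20 and 0.12 after Dex (-0.64, SE 0.16). The slow pair Tnni1 (0.30, SE 0.60) and Myh7 (0.34, SE 0.38) likewise scattered over the Dex arrays. Of 19 genes of calcium handling in muscle 17 were lower, with a median of -0.23. Casq1, the calcium store protein of fast fibers, gave -0.70 (SE 0.20), and Abra, an actin-binding protein of muscle, was at -1.10, -0.89 and -1.08 after TAA, against 0.05, -0.85 and 0.33 after Dex (-0.87, SE 0.31). Dex replicate 2 was almost level with the TAA arrays. How much muscle stayed on each eye cup was not tested.

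**Figure D4:**
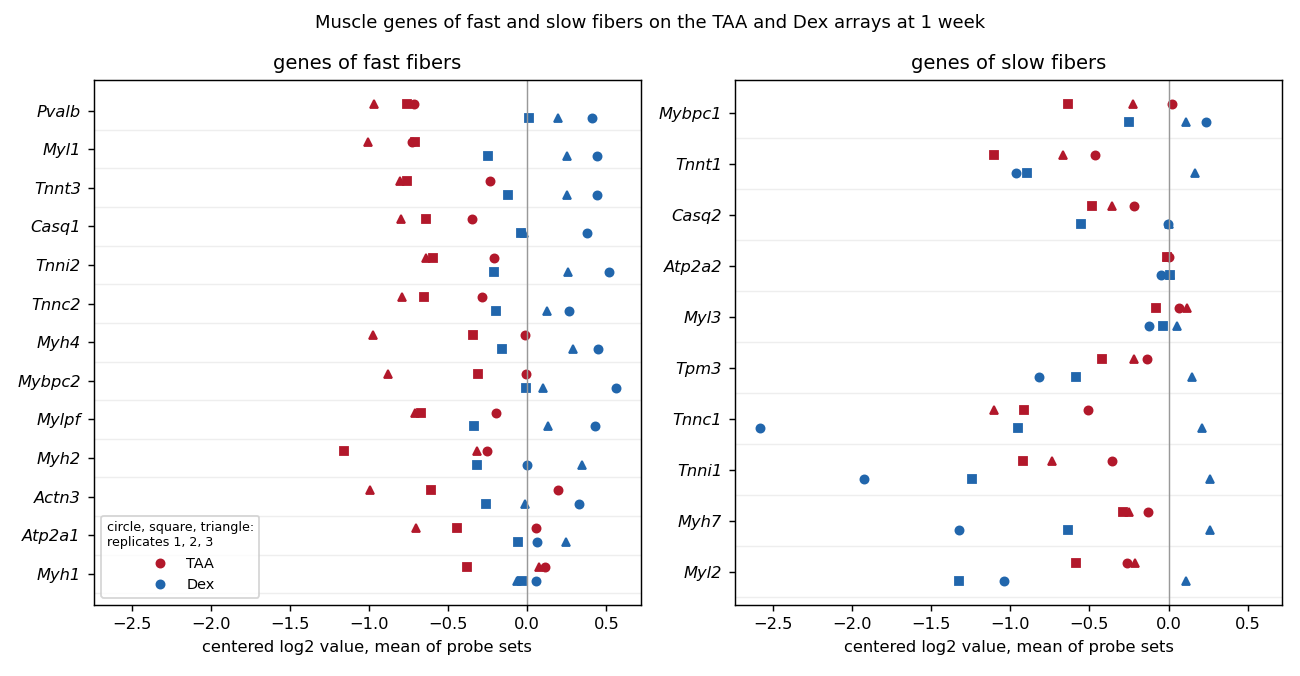
Centered log2 values (x axis) of 13 genes of fast and 10 genes of slow muscle fibers (rows) on the TAA and Dex arrays of 1 week. Fast fiber genes have most TAA points left of the Dex points, and several slow fiber genes have low values on Dex replicates 1 and 2, down to -2.59 for Tnnc1.

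The upstream windows of Myl1, Tpm2 and Pgam2 are given as examples. These genes had low values on every TAA array, and only windows with a match were printed. Capitals mark CAGCTG, a form of the E-box that myogenic factors bind, searched on both strands.
Myl1, chr1:66945057-66945306, minus strand: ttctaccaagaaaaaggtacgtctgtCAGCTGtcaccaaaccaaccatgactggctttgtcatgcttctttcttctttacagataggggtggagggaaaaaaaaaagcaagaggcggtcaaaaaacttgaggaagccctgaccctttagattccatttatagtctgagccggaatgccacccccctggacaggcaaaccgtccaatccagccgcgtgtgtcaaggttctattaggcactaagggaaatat
Tpm2, chr4:43523555-43523804, minus strand: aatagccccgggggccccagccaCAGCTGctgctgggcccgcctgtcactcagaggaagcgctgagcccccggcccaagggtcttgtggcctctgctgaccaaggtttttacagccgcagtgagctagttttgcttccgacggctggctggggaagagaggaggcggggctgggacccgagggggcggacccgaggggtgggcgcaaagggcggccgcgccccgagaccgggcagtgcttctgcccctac
Pgam2, chr11:5803797-5804046, minus strand: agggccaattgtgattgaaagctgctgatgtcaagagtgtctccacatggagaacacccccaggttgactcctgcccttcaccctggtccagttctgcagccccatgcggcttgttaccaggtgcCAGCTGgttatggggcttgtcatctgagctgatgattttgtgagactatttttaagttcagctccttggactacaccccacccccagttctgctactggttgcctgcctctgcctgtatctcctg
Each printed window held 1 match, which follows from that choice, and 13% of all windows and 14.7% of all genes held at least 1. Among the contractile genes 12 of 27 with a window did, including the slow fiber genes Tnni1 and Myl2, whose differences were positive. Pvalb and Tnnc2, also lower after TAA, were not among these 12, for want of a match or of a window.

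Genes listed for lens, ocular surface, fat and retina, which are tissues outside the RPE and choroid, also had mostly lower values after TAA. The medians moved with single arrays, and Krt8 and Krt18 are in both the surface epithelium and the RPE list. Of 15 crystallin and lens genes 15 were lower, with a median of -0.98. Cryba1, a beta crystallin, was at -0.57, -3.40 and -2.71 after TAA, against 1.30, -0.90 and -0.11 after Dex (-2.32, SE 0.96), and without Dex replicate 1 the list median was -0.55. Of 19 surface epithelium genes 14 were lower, with a median of -0.79, or -0.40 without Dex replicate 3 and -1.31 without Dex replicate 1. Krt12, the keratin of the corneal epithelium, was at -0.34, -0.19 and -0.46 after TAA, against 0.30, 6.82 and 4.34 after Dex and 0.05, -0.48 and 0.18 after BSS. Its difference of -4.15 (SE 2.38) therefore came from 2 Dex arrays that were high, while the TAA arrays were level with BSS.

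Among fat genes Adipoq, adiponectin, was at -0.93, -0.14 and -0.47 after TAA, against 4.36, 0.60 and 0.14 after Dex and 2.14, 3.85 and -0.36 after BSS. High values thus occurred in single Dex and BSS arrays. The median of the 13 adipocyte genes was -0.18, or -0.02 without Dex replicate 1, and -0.33 without Dex replicate 3. Rod genes were lower in 20 of 22 members with a median of -0.52, or -0.05 without TAA replicate 2 and -1.32 without TAA replicate 3. Sag, rod arrestin, was at -0.39, -2.02 and 2.84 after TAA, against 2.30, 2.77 and -0.34 after Dex, and the groups overlapped. The part of these tissues in the other differences was not tested. When the rod mean of each array entered the fit as a covariate, 0 probe sets passed and 165 met the study thresholds, 19.4% of them higher after TAA. Endothelial genes were lower in 14 of 15 members, with a median of -0.22. Kdr, a receptor of VEGF on vessels, gave -0.39 (SE 0.19) and Vwf, von Willebrand factor, -0.31 (SE 0.27), both with TAA below Dex on all arrays, while Pecam1 gave 0.03. Dex replicate 1 was the highest Dex array for 13 of the 15, and without it the median was -0.12.

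Of the core clock genes 12 were higher and 9 lower after TAA, with a median of 0.02. Cipc and the repressor Cry1 (0.29, SE 0.18) lay wholly above (9.5% of the list, beside 5.67% of all genes), and Nr1d1, which represses Arntl, lay wholly below (4.8%, beside 5.09%), at 0.12, 0.22 and 0.24 after TAA, against 0.50, 0.33 and 0.84 after Dex (-0.36, SE 0.17). Arntl itself gave 0.27 (SE 0.13), and Per2 0.10 (SE 0.12). Of 98 probe sets of the 36 genes the study names, 12 (12.2%) had the TAA arrays wholly below the Dex arrays, beside 5.36% of all probe sets, and 3 (3.06%) wholly above, beside 5.70%. The 12 belonged to 9 genes. The study drew its genes from these same arrays, so that these shares are no separate finding. Arpp21, a phosphoprotein of dopamine-sensitive neurons, was the most even, at -0.57, -0.55 and -0.59 after TAA, against 0.11, -0.02 and 0.07 after Dex and 0.02, 0.36 and 0.11 after BSS (-0.62, SE 0.12, unadjusted p = 0.000114, adjusted p = 1 in limma). The other 4 probe sets of Arpp21 gave values between -0.18 and 0.03. The splicing factor Rbfox1, expressed in neurons and muscle, gave -0.80 (SE 0.22), the glutamate receptor Grm7 -0.68 (SE 0.24), the prokineticin receptor Prokr1 -0.64 (SE 0.18) and Asph, a hydroxylase locus that also encodes the muscle protein junctin, -0.82 (SE 0.23). Each of these values is for the probe set with the largest difference, and of the 6 probe sets of Asph 3 had negative differences and the rest lay between 0.00 and 0.06. Further probe sets of Rbfox1 gave -0.59, -0.18 and -0.10. Averaged over its probe sets, Grm7 was no lower than -0.29, the lowest value of the glutamate receptor list. The other probe set of Prokr1 went the opposite way, with all TAA arrays above (0.15, SE 0.15). The glutamate receptor gene Grik1 was split too, at 0.40 (SE 0.28) with TAA wholly above on one probe set and -0.26 (SE 0.19) with TAA wholly below on the other.

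Set beside BSS, the TAA arrays were the ones farther away for most of the 24 named genes. The difference of TAA from BSS was larger in size than that of Dex from BSS for 8 of the 12 positive and 10 of the 12 negative genes. Both differences use the same 3 BSS arrays. The exceptions on the positive side were Tc2n, Cipc, Idi1 and Stxbp3, for which Dex was the farther from BSS, below it, and on the negative side Col1a1 and Mfap4, for which Dex was above it.

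At 1 month, on other animals, the same comparison gave 0 probe sets after adjustment and 52 (0.115%) at the study thresholds, 6 (0.0133%) higher and 46 (0.102%) lower after TAA. The change of the steroid difference between 1 week and 1 month was tested as an interaction. It passed for 0 of 45101 probe sets (0%, smallest adjusted p = 1 in limma), with 716 (1.59%) at 0.05 or below before adjustment. Of the 24 named genes 18 kept their sign at 1 month, 9 of 12 in each direction. Since they were chosen for large values at 1 week, smaller ones at 1 month are no separate finding. For Saa3 the values at 1 month were -0.66, -0.54 and -0.26 after TAA, against 0.22, -0.10 and -0.21 after Dex, so that every TAA array was below every Dex array. The difference was 2.03 at 1 week and -0.46 (SE 0.30) at 1 month, an interaction of 2.48 (SE 0.42). This interaction did not pass adjustment, and Saa3 was chosen on its 1 week value, which is part of it. Pvalb was at -0.40 (SE 0.22) and Tpm2 at -0.46 (SE 0.20) at 1 month, with the sign of 1 week. Of the 34 contractile genes, of fast and slow fibers together, 29 were lower, beside 49.1% of all genes, with a median of -0.26. Their list means overlapped, at 0.069, -0.579 and -0.122 after TAA, against -0.048, 0.199 and -0.012 after Dex. Rod and surface epithelium genes turned: at 1 month 22 of 22 and 17 of 19 were higher after TAA. Single arrays set these counts, and the groups overlapped. The rod mean was 2.006, 2.613 and -1.111 after TAA, against -1.037, 0.077 and 2.820 after Dex. For surface epithelium it was 1.027, 1.287 and -1.282 after TAA, against -1.133, 1.881 and -1.056 after Dex. The matrix genes did not turn: 23 of 25 were lower, as at 1 week, with a median of -0.12, while Dpt was at 0.04 (SE 0.31). The glucocorticoid response genes had a median of -0.03 at 1 month, 13 of 28 being higher, beside 50.9% of all genes.

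**Figure D5:**
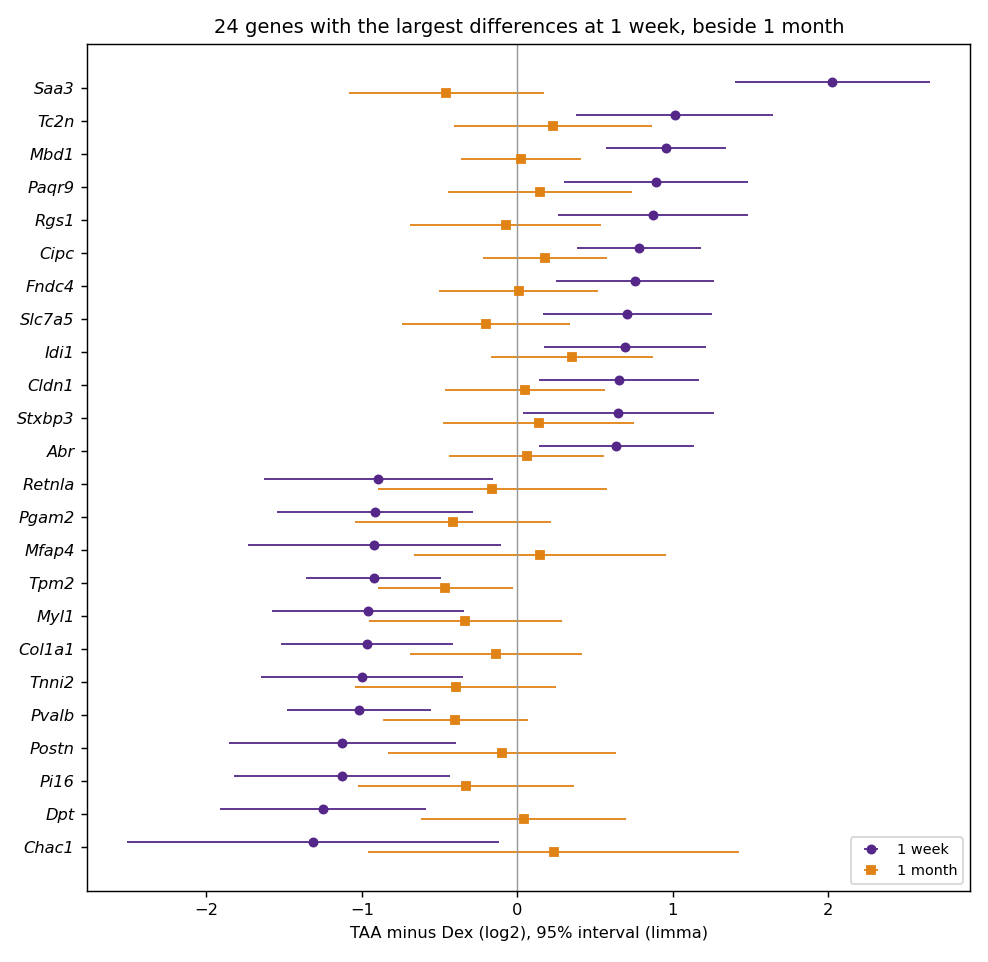
Difference between TAA and Dex (log2, x axis) of the 24 named genes (rows) at 1 week and at 1 month, each with limma's 95% interval. The genes were chosen on their 1 week values. The interval of Saa3 runs from 1.40 to 2.66 at 1 week and from -1.09 to 0.17 at 1 month.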

How the data were processed

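RPE/choroid RNA was hybridized to Affymetrix mouse genome arrays. The authors summarized and normalized the arrays by RMA in GeneSpring and subtracted each probe set's median over all samples, so that the deposited values are centered log2 values. Annotation gave 1 gene to 34958 of 45101 probe sets, several to 932 and none to 9211. An array reports no read depth, and 3 arrays per group limit the precision. The labels name a two-cycle labeling protocol and the methods a 3′ IVT kit, and which was used is not settled here. The methods' filter on low signal could not be repeated on centered values.

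Groups were taken from the labels. A linear model with 1 mean per group was fitted to all 18 arrays in limma 3.58.1 (R 4.3.3), with moderated errors and Benjamini-Hochberg adjustment over all probe sets (threshold 0.05), and again on gene means over probe sets of that gene alone (18194 genes). Contrasts were TAA minus Dex at each time, their difference, and each steroid minus BSS. The fit was tested on simulated data. Genes were named by size, 12 in each direction, among those that met the study thresholds with groups apart, then up to 4 per list, and the genes the study names. Further list members were chosen after their values were seen, among them Chil3, Hp, Cebpd, Sgk1, Otx2, Msmo1, Kera, Folr2, Nr1d1, the chains of collagen VI, Tnnc1, Tnni1, Myh7 and Myl2. For the named genes of each direction and the study's genes, values are those of the probe set with the largest difference. For list members, and the clock genes, they are gene means unless said otherwise. The comparison and the 42 gene lists were chosen with earlier results of these data known. Alternatives were other priors, array weights, scalings, filters, fewer arrays, a replicate block, the methods' t-test, a rod covariate and leaving out each array. Promoters are from RefSeq tables.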

Additional observations from a re-analysis of the deposited data

How the results depend on the processing

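No probe set passed between TAA and Dex at 1 week under any alternative except array weights, where 1 did (Saa3), and 0 passed for the change of the steroid difference between 1 week and 1 month under the 6 alternatives run for it and each array left out. The count at the study thresholds, 122 in the fit of all arrays, was 295 with quantile normalization (55.6% higher after TAA, against 26.2%), 204 with the 6 TAA and Dex arrays alone (15.7% higher), 184 with the 9 arrays of 1 week (19.0% higher) and 63 with the methods' t-test (15.9% higher). The cause of these shifts was not tested, apart from the smaller number of arrays in some fits. Leaving out each array gave 116 to 218 probe sets at these thresholds, 218 without Dex replicate 2 and 208 without TAA replicate 3. Replicate numbers were not taken to pair the arrays, since same-numbered TAA and Dex arrays had correlations of 0.179, -0.192 and -0.154 between their deviations. With the replicate number as a block, 0 probe sets passed and 119 met the study thresholds.

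Of the named genes, the log2 difference changed sign for 11 when single arrays were left out, with ranges of -0.037 to 0.758 for Myh7, -0.471 to 0.927 for Tnnc1, -0.181 to 0.913 for Tnni1, -0.154 to 0.043 for Dcn, -0.018 to 0.101 for Pecam1, -0.326 to 0.228 for Zbtb16, -0.036 to 0.004 for Ciita, -0.138 to 0.0 for Saa2, -0.072 to 0.24 for Pdgfra, -0.018 to 0.331 for Tsc22d3 and -0.191 to 1.042 for Serpina3n. These genes had no called difference. The median of the acute phase genes, 0.033, was -0.010 with the probe set of largest SD per gene. The rod covariate was added after the data had been seen. Quantile normalization moved the median difference of all probe sets to 0.0071, against -0.003. With 3 arrays a group, differences within the spread of single arrays were not detectable.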
